A study of Mus musculus with 61 samples.

Results

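The T-cell receptor complex and its first signalling steps were followed through 9 genes: the receptor's signalling chains Cd3d, Cd3e, Cd3g and Cd247, the kinases Lck and Zap70, the adaptors Lat and Sit1, and the coreceptor Cd4. The genes were chosen by name, and every probe set that the platform annotation assigns to 1 of these symbols was taken. This gave 13 probe sets for 8 of the 9 genes, among 22626 probe sets and 12291 named genes in all. Lck was not analysed here. Each gene is described by its brightest probe set, 1422828_at for Cd3d, 1422105_at for Cd3e, 1419178_at for Cd3g, 1426396_at for Cd247, 1419696_at for Cd4, 1422701_at for Zap70, 1460651_at for Lat and 1418751_at for Sit1, and all 8 measured genes were bright enough to be tested on both array types.

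The arrays came from naive CD4 T cells of C57BL/6 mice, activated in culture with an antibody against CD3 (1 ug/ml) and a second antibody, which the labels write as anti-CD8 (1 ug/ml), in a control arm (ctrl) and in an arm with the cytokine IL-27 at 25 ng/ml (IL27). By its title, the series addresses the transcriptional network driven by IL-27 that regulates IL-10, studied here during differentiation of type 1 regulatory T cells. All groups shared the strain, the naive CD4 starting cells and the stimulation through CD3. The labels attach the culture text with IL-27 to the control arrays as well, so the arm was read from each title, and the ages of the mice, the pooling of animals and the purity of the cells were not stated in the labels. Each arm had 26 HT_MG-430A arrays spread over 18 times between 0.5 and 72 h, a pair of arrays at 8 of the times and a single one at the remaining 10. Times carry no unit in the labels and were read as hours. A second set of 9 Mouse430A_2 arrays held ctrl at 0 h, both arms once each at 4, 16 and 48 h, and a pair named GFPP and GFPN at 48 h whose names the labels do not explain. Separate cultures or animals are not mentioned for the arrays of an arm, so p-values cover the spread between arrays, and that may be technical. Where an arm was compared over time, the times grouped together served as replicates, so the spread also holds changes between those times. Between the arms it also holds differences of the effect between the times of a window. Precision is limited by how many arrays there were.

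The T-cell receptor itself has no enzyme activity. Its antigen-binding chains sit in the membrane beside the CD3 chains, gamma (Cd3g), delta (Cd3d) and epsilon (Cd3e), and the zeta chain (Cd247), whose tails are phosphorylated by Lck when the receptor is engaged. Zap70 then docks on the zeta and CD3 tails and phosphorylates the membrane adaptor Lat, on which the enzymes of calcium, Ras and protein kinase C signalling gather. Cd4 binds MHC class II and brings Lck to the receptor, and Sit1 is a transmembrane adaptor that binds the phosphatase SHP2 and dampens receptor signals. Engaged receptors are taken into the cell and degraded, and activated T cells are known to lower receptor components at the surface.

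The sequences upstream of 4 of the genes are shown because Cd3d and Cd3g lie beside each other and moved together in the data below, while Cd247 and Sit1 differed between the arms in opposite directions. RefSeq promoters (mouse build GRCm38.p6) matched 8 of the 9 genes with 11 start sites, and none was listed for Cd4. Each sequence is the 250 bases before the start site, on the gene's strand and 5′ to 3′. Capitals mark every match, on either strand, to 5 motifs: a STAT site (TTCNNNGAA), an interferon response element (GAAA, 2 bases of any kind, GAAA), an ETS core (GGAAGT), a RUNX core (TGTGGT) and an E-box (CAGGTG). The Cd3d stretch lies at chr9:44981536-44981785 on the + strand, Cd3g at chr9:44980432-44980681 on the - strand, Cd247 at chr1:165788431-165788680 on the + strand and Sit1 at chr4:43483710-43483959 on the - strand.
Cd3d: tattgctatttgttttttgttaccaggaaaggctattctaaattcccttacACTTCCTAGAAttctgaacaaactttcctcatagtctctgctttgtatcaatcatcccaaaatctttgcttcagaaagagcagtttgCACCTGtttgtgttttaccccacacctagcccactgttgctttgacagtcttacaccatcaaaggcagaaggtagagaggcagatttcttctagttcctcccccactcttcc
Cd3g: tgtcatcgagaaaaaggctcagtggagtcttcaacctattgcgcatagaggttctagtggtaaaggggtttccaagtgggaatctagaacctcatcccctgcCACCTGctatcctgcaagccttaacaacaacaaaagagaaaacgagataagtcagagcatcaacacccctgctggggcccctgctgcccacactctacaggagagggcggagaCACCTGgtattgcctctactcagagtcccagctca
Cd247: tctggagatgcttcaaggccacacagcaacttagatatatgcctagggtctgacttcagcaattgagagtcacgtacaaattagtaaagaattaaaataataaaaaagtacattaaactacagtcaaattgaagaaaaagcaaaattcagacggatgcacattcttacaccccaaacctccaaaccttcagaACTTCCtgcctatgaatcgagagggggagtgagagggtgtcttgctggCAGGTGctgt
Sit1: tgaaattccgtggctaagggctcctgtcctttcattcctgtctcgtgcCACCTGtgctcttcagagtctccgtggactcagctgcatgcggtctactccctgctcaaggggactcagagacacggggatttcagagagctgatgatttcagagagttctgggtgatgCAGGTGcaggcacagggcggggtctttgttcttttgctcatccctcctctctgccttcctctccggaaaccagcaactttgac

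Cd3d and Cd3g are transcribed away from each other from starts 1355 bases apart, with Cd3e on the same chromosome. Upstream of Cd3d, a STAT site at bases 197 to 189 before the start overlapped an ETS core read on the reverse strand at bases 199 to 194, and a reverse E-box lay at bases 112 to 107. Cd3g held reverse E-boxes at bases 148 to 143 and 35 to 30. Cd247 held a reverse ETS core at bases 58 to 53 and an E-box at bases 10 to 5, and Sit1 a reverse E-box at bases 202 to 197 and a forward one at bases 83 to 78. Over the 250-base stretches of 32841 mouse start sites, 7.0% held the STAT site, 3.0% the interferon response element, 19.7% the ETS core, 14.0% the RUNX core and 17.2% the E-box. No second STAT site and no interferon response element was found among the 11 upstream stretches of these genes, and a match is a description of the letters, not of binding.

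Median intensities ranged from 28.0 to 36.6 units over HT_MG-430A arrays and from 70.7 to 78.9 over Mouse430A_2 arrays. The control array at 12 h stood apart, with r = 0.870 to the array most like it over 12694 probe sets, where each other HT_MG-430A array reached at least 0.980. On it Zap70 read 138 units, against at least 1049 at every other control time, Lat read 1189.9 and Cd247 read 353, so results that rest on it are given with and without it. The cells carried the defining markers of CD4 T cells, the CD3 chains and Cd4. Markers of other cells differed in level, and the sum for B cells was not low. All 3 measured erythroid markers lay below the array median on all HT_MG-430A arrays, as did the 5 measured NK markers at early and middle times. NK markers had a summed median of 84.0 late with IL-27, with up to 289.6 on 1 array, against 68.5 in control. The 11 myeloid and dendritic markers summed to medians of 163.1 in control and 172.0 with IL-27 in the middle window, where 11 and 9 of them lay below the array median on every array. The 7 measured B cell markers summed to 769.9 to 2061.7 in the 9 control arrays of the middle window and to 589.8 to 1394.9 with IL-27. There 4 of the 7 lay below the array median on every array of either arm. In the early window the sum reached 3491.0 in control and 3572.7 with IL-27. On the 16 h Mouse430A_2 arrays it was 6863.4 in control and 5277.3 with IL-27. Of both CD8 markers, Cd8a lay below the array median, and the sum had medians of 141.7 in control and 80.6 with IL-27 in the middle window, and 178.6 and 108.5 late. Their part in the results was not tested. In bulk RNA, fewer cells of a type and less RNA per cell cannot be told apart.

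Within a day of stimulation 7 of the 8 genes fell in both arms, and Zap70 did not pass the test in either. In control cells, from 0.5 to 2 h (4 arrays) to 12 to 20 h (7 arrays), Cd247, Cd3d, Cd3e, Cd3g, Cd4, Lat and Sit1 passed the limma test (Benjamini-Hochberg adjusted p under 0.05 over all 7163 genes) as lower and none as higher. Over all genes tested, 32.8% were lower and 38.9% higher in the same comparison. The median difference of the 8 genes was -0.98 on the log2(intensity + 32) scale, which all log2 values here use, beside 0.07 for all genes. With IL-27 the same 7 genes were lower, with a median of -1.04 beside 0.09, where 31.5% of all genes were lower and 40.3% higher.

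No array read a CD3 chain below 337 units. Cd3d, the delta chain, read 5489 units at 0.5 h in control, reached its lowest control level of 2304 at 4 h and read 5140.1 at 72 h, 93.7% of the first value. With IL-27 it went from 5796 to a lowest value of 2019 at 12 h and back to 5802 at 72 h. Between 0.5 to 2 h and 12 to 20 h it fell by 0.93 ± 0.14 log2 (SE) in control (adjusted p = 5.3e-08) and by 1.09 ± 0.14 with IL-27 (adjusted p = 1.4e-09). Cd3g, the gamma chain, started at 3085 and 3212 units and had lowest means of 732 at 8 h in control and 551 at 14 h with IL-27. It fell by 1.03 ± 0.23 in control (adjusted p = 0.00011) and by 1.34 ± 0.23 with IL-27 (adjusted p = 1.7e-06), and at 72 h it stood at 59.1% of its 0.5 h value in control and 68.4% with IL-27. Cd3e, the epsilon chain that pairs with both, fell by 0.87 ± 0.16 in control (adjusted p = 4.7e-06) and by 1.05 ± 0.16 with IL-27 (adjusted p = 1.3e-07). It went from 1188 and 1156 units to 573 and 737 at 72 h, so that its control level at 72 h was 48.2% of that at 0.5 h.

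Cd247, the zeta chain, fell by 1.61 ± 0.16 in control (adjusted p = 2.1e-12) and by 0.91 ± 0.16 with IL-27 (adjusted p = 1.4e-06). Its control level was 1849.7 units at 0.5 h, 353 on the 12 h array that stands apart, 501 at 16 h and 729 at 72 h, and with IL-27 it was 1650.2, 784 at its lowest at 25 h and 1116 at 72 h. At the last time the zeta chain stood at 39.4% of its first value in control and at 67.6% with IL-27. Cd4 read 769 and 748 units at 0.5 h and was lowest at 4 h in both arms, at 231 in control and 129 with IL-27. By 12 to 20 h it was lower than at 0.5 to 2 h by 0.78 ± 0.19 in control (adjusted p = 0.00043) and by 1.04 ± 0.19 with IL-27 (adjusted p = 6.2e-06).

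Lat, the adaptor, went from 5194 units at 0.5 h to 2689 at 72 h in control and from 5193 to 3094 with IL-27. It fell by 1.09 ± 0.13 in control (adjusted p = 8.6e-10) and by 0.50 ± 0.13 with IL-27 (adjusted p = 9e-04). Without the 12 h control array its control fall was 0.92. Sit1 fell to about the array median. Its control level was 547 units at 0.5 h, 441 at 1 h, 51 at 4 h, 23.3 and 37.1 at 8 h, 20.9 on the 12 h array that stands apart, and 142 at 72 h. With IL-27 it read 422 units at 0.5 h, 44.6 and 17.9 at 8 h, 27.2 at 14 h and 154 at 72 h. Such low values give no exact fold, and the added constant of 32 makes log2 differences smaller than those of the intensities. On that scale it fell by 2.04 ± 0.29 in control (adjusted p = 2.7e-08) and by 1.30 ± 0.29 with IL-27 (adjusted p = 9e-05).

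Zap70, the kinase that docks on the receptor, had its highest level hours into the culture. It read 1195 units at 0.5 h and 2853 at 4 h in control, 2.39 times as much, and with IL-27 1211 units at 0.5 h and 2274 at 8 h, 1.88 times as much, values that were not tested one by one. By 12 to 20 h its control difference from 0.5 to 2 h was -0.05 ± 0.36 (adjusted p = 0.9), which rested on the 12 h array: without it the difference was 0.48 ± 0.19 with an adjusted p of 0.019, a rise. Its difference with IL-27 was 0.04 ± 0.36 (adjusted p = 0.93). The other Zap70 probe set, 1439749_at, was called lower in this comparison with all arrays, by 0.26 ± 0.09 in control (adjusted p = 0.0065) and with IL-27 (adjusted p = 0.0069). In the plot of levels by time, control levels of the 7 other genes are highest at 0.5 h (Lat at 2 h), while Zap70 peaks at 4 h in control and at 8 h with IL-27.

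**Figure D1:**
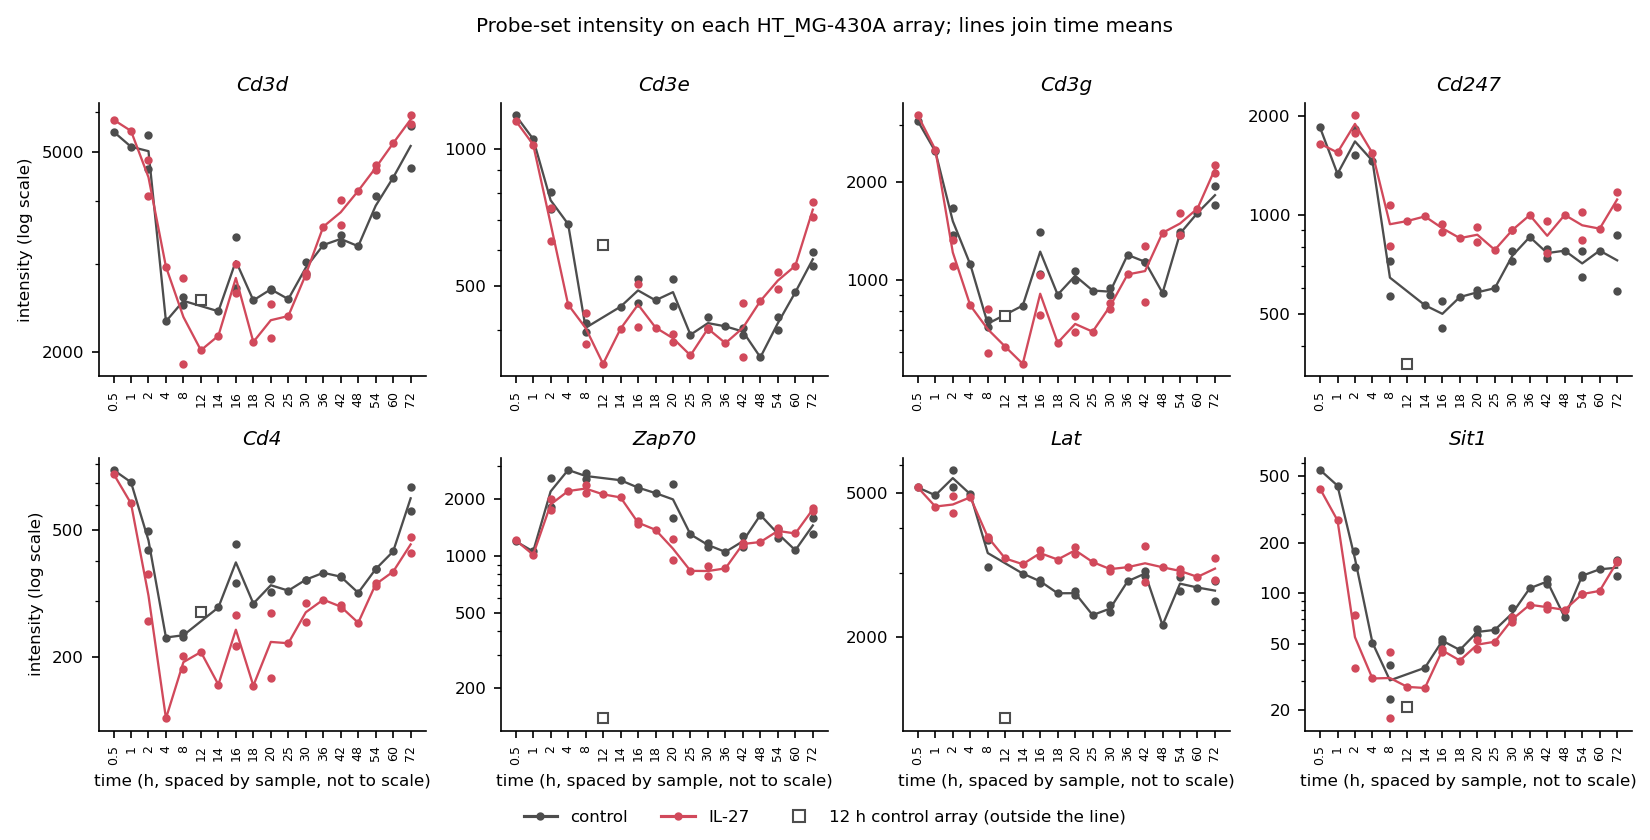
Intensity (log axis, deposited units) of the 8 genes by time after stimulation (h) on HT_MG-430A arrays, points for single arrays and lines for the mean of each arm. Zap70 climbs to 2853 units at 4 h in control while Sit1 goes from 547 units at 0.5 h to 20.9 on the 12 h control array, which also gives the isolated low Zap70 point of 138.

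Several of the genes rose again by 42 to 72 h (8 arrays per arm). In control, Cd247 (by 0.52 ± 0.13), Cd3d (0.57 ± 0.11), Cd3g (0.46 ± 0.19) and Sit1 (0.99 ± 0.24) were higher at 42 to 72 h than at 12 to 20 h, 4 of 8 where 27.9% of all genes were higher and 29.2% lower. The Cd3g call was lost without the 12 h array (0.40, adjusted p = 0.077). It was also lost without 14, 18, 20, 54, 60 or 72 h, without arrays of title suffix d and with no filter on low values. Zap70 passed as lower without that array, by 0.72 with an adjusted p of 0.00012. With IL-27, Cd3d (0.99), Cd3e (0.37), Cd3g (1.05), Cd4 (0.65) and Sit1 (0.92) were higher, 5 of 8 where 30.6% of all genes were higher and 32.4% lower. Here the Cd3e call was lost without 72 h (0.22, adjusted p = 0.13). The median of the 8 genes was 0.40 in control and 0.51 with IL-27, beside -0.01 for all genes in each arm. Against 0.5 to 2 h, 7 of the 8 were still lower at 42 to 72 h in control (background 33.6% lower, 39.6% higher) and 3 of 8, Cd247, Cd3e and Lat, with IL-27 (background 31.3% lower, 39.6% higher). The IL-27 count was 3 to 6 with single times left out: without 2 h Cd3g (-0.90, adjusted p = 0.0014), Cd4 (-0.92, adjusted p = 0.00012) and Sit1 (-1.45, adjusted p = 7e-08) were also called. The control count was 4 to 7 when single times were left out, since Cd3g and Cd4 were not called without 0.5, 1, 42 or 48 h, Cd4 also not without 54 h, and Cd3d not without 42 h.

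IL-27 moved the genes of the complex in different directions. Cd4 was lower with IL-27 in all 3 time windows, Cd247 and Lat were higher in the middle and late ones, Sit1 was lower in the first hours, and Cd3g was lower at 8 to 20 h. The windows were early (0.5 to 4 h, 5 arrays per arm), middle (8 to 20 h, 9 per arm) and late (25 to 72 h, 12 per arm), in 1 limma model with time as a factor. Early, 2 of the 8 genes were called lower and 0 higher, in the middle window 2 lower and 2 higher, and late 1 lower and 2 higher. Over all genes, 1.79% were higher and 0.531% lower early, 4.82% and 5.85% middle, and 8.73% and 9.77% late. The median difference of the 8 genes was -0.18 early, -0.13 in the middle and 0.07 late, beside -0.03, -0.02 and -0.01 for all genes. These comparisons use the same control arrays as the control time course, so both sets of values share their errors.

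Cd4, the coreceptor, was lower with IL-27 in each window. Early, its control arrays read 769 at 0.5 h, 704 at 1 h, 433 and 494 at 2 h and 231 at 4 h, and the IL-27 arrays 748, 605, 364 and 261, and 129. Each IL-27 value lay below the control value of its time, with the gap at 0.04 log2 at 0.5 h and 0.71 at 4 h. The early difference was -0.41 ± 0.10 (adjusted p = 0.026), a call lost without 2 h (-0.32, adjusted p = 0.71) or without 4 h (-0.33, adjusted p = 0.2). That call was also lost with the mean of all probe sets (-0.30), without arrays of title suffix d (-0.34) and with the mean of single-time contrasts (-0.37). In the middle window, control arrays read 231, 295 and 451 at their lowest, median and highest, and IL-27 arrays 163, 203 and 275. The ranges overlapped across times, the difference was -0.52 ± 0.08 (adjusted p = 1e-05), and at 12 to 20 h alone the arms did not overlap (278 to 451 against 163 to 275). Late, control arrays read 318, 363 and 681 and IL-27 arrays 222, 299 and 476, a difference of -0.30 ± 0.07 (adjusted p = 0.0013). At 18 of 18 times every IL-27 array read lower than every control array of that time, with 1 array per arm at 10 of these times. The share of all genes with such a pattern was not computed.

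Cd247, the zeta chain, differed the other way. At 12 to 20 h its 7 control arrays read 353, 549 and 592 at the lowest, median and highest, and its 7 IL-27 arrays 826, 918 and 991. The arms did not overlap, with or without the 12 h control array, whose 353 was the lowest value. The middle difference was 0.73 ± 0.08 (adjusted p = 6e-08), and 0.65 without the 12 h control array. The late one was 0.33 ± 0.07 (adjusted p = 0.00096), where control arrays read 588, 778 and 869 and IL-27 arrays 768, 936 and 1177, so the pooled late ranges overlapped. Early it was 0.10 ± 0.11 (adjusted p = 0.88), and the change from early to middle was itself called (0.64 ± 0.14, adjusted p = 0.013), though not without 2 h (0.69, adjusted p = 0.057) or without 16 h (0.61, adjusted p = 0.054). The mean of the zeta chain was higher with IL-27 at 17 of 18 times, and at 15 of them every IL-27 array lay above every control array. At 10 of the 18 times each arm had 1 array, and the share of all genes was not computed.

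Lat was also higher with IL-27 in the middle and late windows. Its 12 to 20 h control arrays read 1189.9, 2676 and 2998 and its IL-27 arrays 3183, 3355 and 3563. The arms did not overlap, with or without the 12 h control array, whose 1189.9 was the lowest value. The middle difference was 0.38 ± 0.08 (adjusted p = 0.0014) and 0.25 without the 12 h control array (adjusted p = 0.002). Late, control arrays read 2157, 2713 and 3053 and IL-27 arrays 2833, 3099 and 3570.0, with some overlap. The late difference of 0.23 ± 0.07 (adjusted p = 0.019) was not called without 30 h (0.20, adjusted p = 0.077). Nor was it called without arrays of title suffix d (0.26, adjusted p = 0.13). Lat was higher at each of the 6 middle and 8 late times, and the 2 arrays of 1 arm and time differed by a median of 0.06 log2. The share of all genes with such patterns was not computed.

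Sit1 differed while it was being lost. Control arrays read 547 at 0.5 h, 441 at 1 h, 143 and 179 at 2 h and 50.7 at 4 h, and IL-27 arrays 422, 273, 73.8 and 35.6, and 31.0. The gap was largest at 2 h, at 1.19 log2, and at 8 h the arms met (30.2 and 31.2 units on average). The early difference of -0.75 ± 0.12 (adjusted p = 8.5e-05) became -0.46 without 2 h (adjusted p = 0.1). The change of the difference was 0.67 ± 0.15 from early to middle (adjusted p = 0.013) and 0.59 ± 0.14 from early to late (adjusted p = 0.0064), and neither was called without 2 h. Both calls were also lost without arrays of title suffix d (0.49 and 0.42). Middle and late differences, -0.08 and -0.16, were not called.

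Over all genes, the change from early to middle was called as higher for 0.461% and as lower for 0.782%, and the change from early to late for 3.48% and 3.62%. Among the 8 genes 2 changed from early to middle (Cd247 and Sit1) and 1 from early to late (Sit1). From early to middle the difference of Lat moved by 0.50 (adjusted p = 0.055) with all arrays and by 0.37 (adjusted p = 0.02) without the 12 h control array. Without that array Cd3e (0.32, adjusted p = 0.046) and Lat (0.35, adjusted p = 0.0041) joined Sit1 in the late change. The plot of window differences sets the 3 windows beside each other for each gene.

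**Figure D2:**
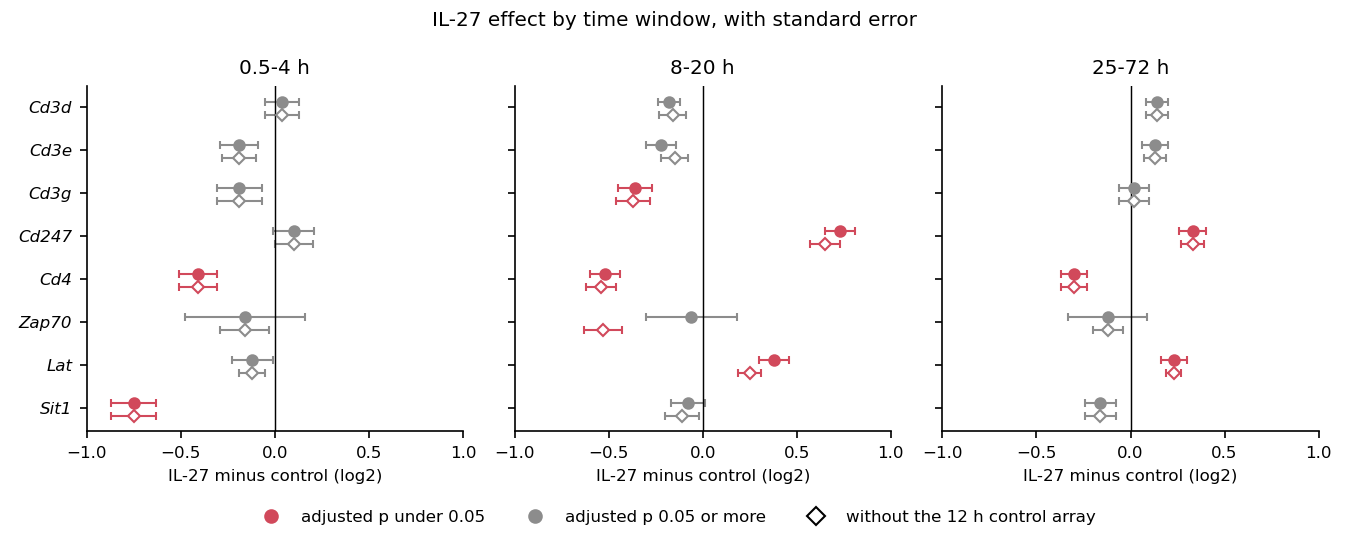
IL27 minus ctrl difference (log2 of intensity + 32) of each gene in the early, middle and late window, with SE bars, on HT_MG-430A arrays. Cd4 lies below 0 in each window (-0.41, -0.52, -0.30), Cd247 rises to 0.73 in the middle, and Sit1 is at -0.75 early.

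For the 3 CD3 chains of the gene cluster, the difference between the arms was below 0 at 12 to 20 h and above 0 at 42 to 72 h, and the change between both periods was called for each, though not every chain was called in each period. This split was noticed after the values were seen, and its test compares the effect of IL-27 between both periods in 1 model with a coefficient for each of 5 periods. Cd3g at 12 to 20 h read 772, 995 and 1400.1 in control and 551, 688 and 1032 with IL-27, and at 42 to 72 h 911, 1388 and 1941 against 853, 1501 and 2251. Cd3d read 2413, 2659 and 3393 against 2019, 2157 and 2998, then 3249.5, 3911 and 5624 against 3578, 4654 and 5912. Cd3e read 450.1, 465 and 614 against 337, 402 and 504, then 348, 416 and 593 against 349, 514 and 765. The arms overlapped in every one of these sets when times were pooled. Time by time, the means of Cd3d and Cd3e were lower with IL-27 at 5 of 5 times of the first period and higher at 5 of 5 times of the second. Those of Cd3g were lower at 5 of 5 times and then higher at 4 of 5. The share of all genes with such a pattern was not computed. On the Mouse430A_2 arrays of 48 h, described below, Cd3e was higher with IL-27 while Cd3d and Cd3g were not.

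The change of the IL-27 effect from 12 to 20 h to 42 to 72 h was 0.59 ± 0.13 for Cd3g (adjusted p = 0.0014), 0.51 ± 0.11 for Cd3e (adjusted p = 0.0012) and 0.42 ± 0.10 for Cd3d (adjusted p = 0.0029). Over all genes 8.04% changed this way and 7.51% the other way. The 3 calls held without the 12 h control array (0.61, 0.43 and 0.40) and with each single time left out. Cd247 changed the other way, by -0.44 ± 0.13 (adjusted p = 0.023), a call lost when the 12 h control array was left out (-0.34, adjusted p = 0.062) or without 16, 42 or 54 h. For Cd4 the change was 0.32 (adjusted p = 0.066) with all arrays and 0.36 (adjusted p = 0.043) without that array.

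Within 12 to 20 h, Cd3g was lower by 0.45 ± 0.09 (adjusted p = 0.00084) and Cd3e by 0.28 ± 0.08 (adjusted p = 0.017; -0.19 and 0.11 without the 12 h control array), while Cd3d at -0.20 ± 0.07 was not called (adjusted p = 0.063). Cd247 (0.80), Lat (0.45) and Cd4 (-0.60) were also called there, 2 genes higher and 3 lower in all, where 5.57% of all genes were higher and 7.33% lower. Without the 12 h control array these differences were 0.70, 0.28 and -0.63, still called. Within 42 to 72 h Cd3d (0.22 ± 0.07, adjusted p = 0.013), Cd3e (0.23 ± 0.07, adjusted p = 0.021) and Cd247 (0.36 ± 0.09, adjusted p = 0.0041) were higher and Cd4 (-0.28 ± 0.08, adjusted p = 0.012) lower, while Cd3g at 0.14 ± 0.09 was not called (adjusted p = 0.26), where 10% of all genes were higher and 12.8% lower. Lat at 0.18 was not called (adjusted p = 0.14) with all arrays and was without the 12 h control array (adjusted p = 0.012). In the other periods, with all arrays, Cd247 was not called at 4 to 8 h (0.37) or 25 to 36 h (0.27). Cd4 was not called at 0.5 to 2 h (-0.33), 4 to 8 h (-0.40) or 25 to 36 h (-0.34). Lat was not called at 4 to 8 h (0.09) or 25 to 36 h (0.33, adjusted p = 0.17). Without the 12 h control array Lat was called at 25 to 36 h (adjusted p = 0.0055). The 42 to 72 h calls of Cd247, Cd3e and Cd4 were lost without 72 h (0.27, 0.20 and -0.22), and those of Cd3d and Cd3e without 54 h. In the middle window of 8 to 20 h, Cd3g was lower by 0.36 ± 0.09 (adjusted p = 0.0057), a call lost without 20 h (-0.33, adjusted p = 0.052). Cd3d (-0.18, adjusted p = 0.063) and Cd3e (-0.22, adjusted p = 0.056) were not called there, nor late (0.14, adjusted p = 0.071, and 0.13, adjusted p = 0.19).

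**Figure D3:**
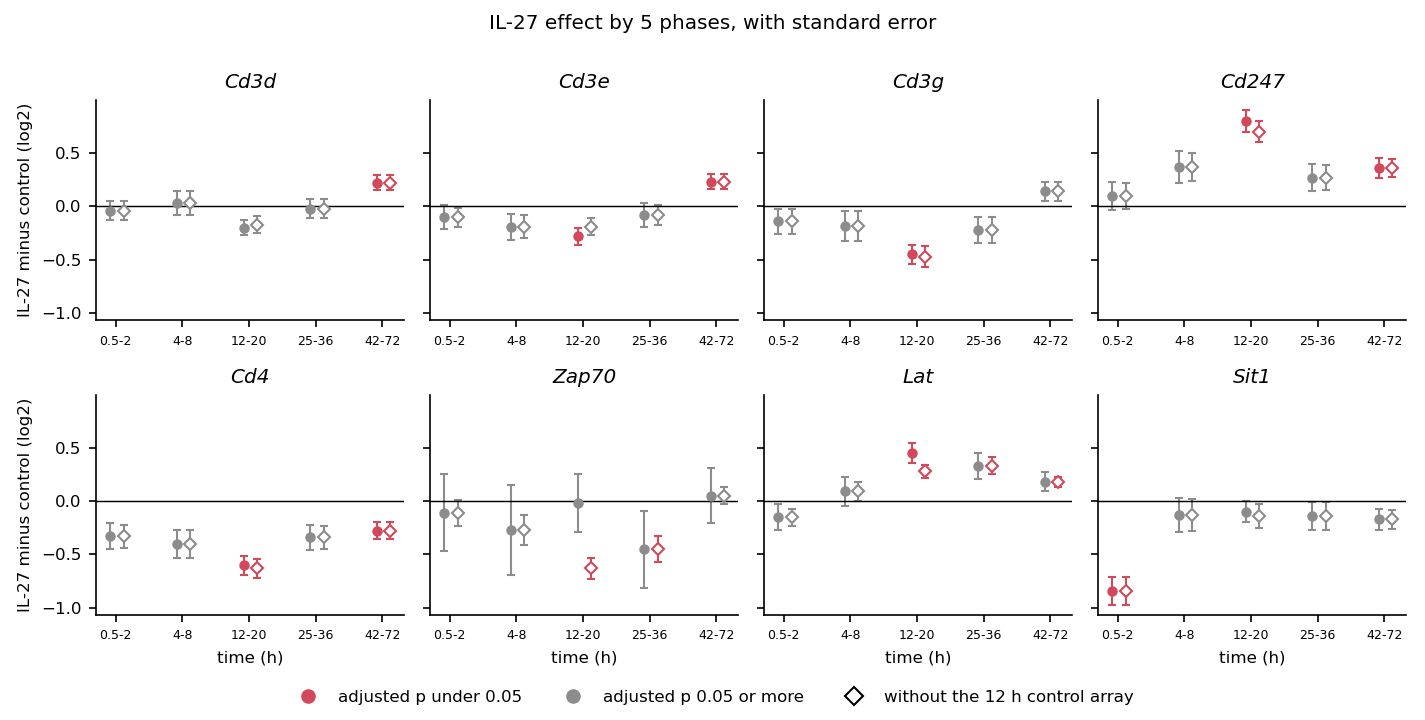
IL27 minus ctrl difference (log2 of intensity + 32) of the genes in the 5 periods after stimulation, with SE bars, HT_MG-430A arrays. Cd3d, Cd3e and Cd3g lie below 0 at 12 to 20 h (-0.20, -0.28, -0.45) and above it at 42 to 72 h (0.22, 0.23, 0.14).

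**Figure D4:**
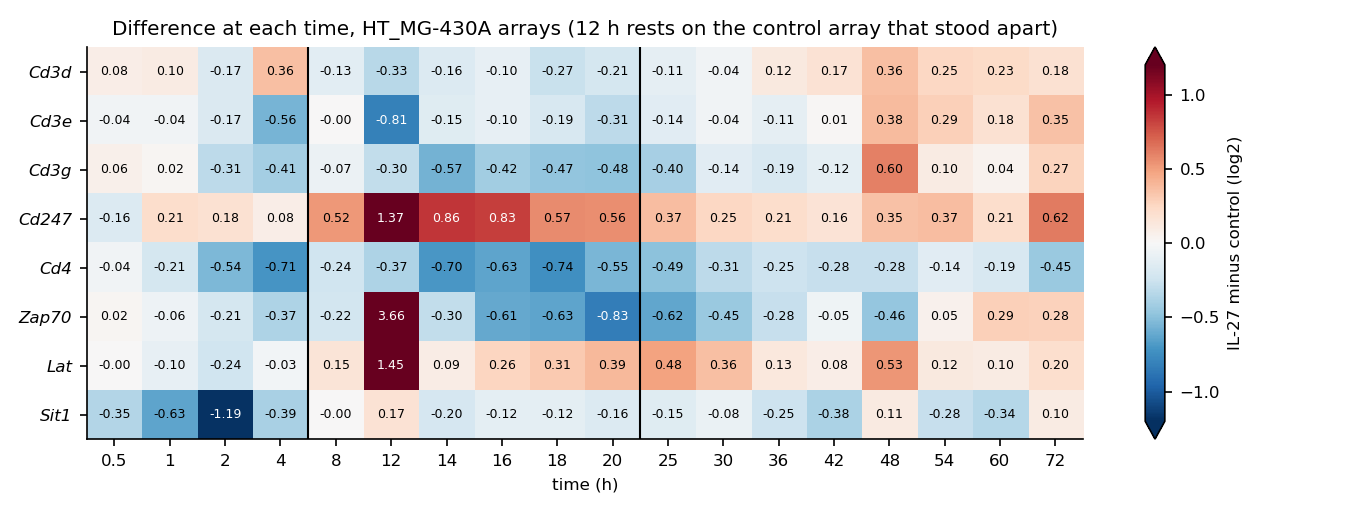
IL27 minus ctrl difference (log2 of intensity + 32) of each gene at each of the 18 times (h), averaged over the arrays of a time, blue for lower and red for higher with IL-27. Cd4 is lower at all 18 times, and Zap70 at 12 h (3.66) is the value set by the control array that stands apart.

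For Zap70, the effect of IL-27 hung on 1 array. Control arrays at 12 to 20 h read 138 at 12 h, 2517 at 14 h, 2328 and 2273 at 16 h, 2151 at 18 h and 1584 and 2400.3 at 20 h, and IL-27 arrays 2118, 2041, 1475 and 1525, 1375, and 1231 and 953. At 14 to 20 h every IL-27 array lay below the control arrays of its time, a pattern whose share over all genes was not computed. At 12 h the IL-27 array was higher by 3.66 log2. The 12 to 20 h difference was -0.02 ± 0.27 (adjusted p = 0.97) with all arrays and -0.63 ± 0.10 (adjusted p = 1.2e-05) without the 12 h control array. In the middle window it was -0.06 ± 0.24 (adjusted p = 0.89) and -0.53 ± 0.10 (adjusted p = 3e-04). Without that array the effect also changed from 12 to 20 h to 42 to 72 h, by 0.68 ± 0.13 (adjusted p = 0.00026), to 0.05 ± 0.08 at 42 to 72 h.

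The Mouse430A_2 arrays gave single values of the same genes, on their own scale and with unstimulated cells at 0 h. At 0 h Cd3d read 12042 units, Cd3g 10016, Lat 7088, Cd247 3125, Zap70 2571, Cd3e 2395, Cd4 2193 and Sit1 1602, which are levels of different probe sets and give no order between genes. Sit1 was 231 in control and 79.8 with IL-27 at 4 h, 176 and 155 at 16 h, and 222 and 194 at 48 h, so the 0 h level was 6.94 to 9.10 times the control levels. Cd4 was 898 in control and 548 with IL-27 at 4 h, 1483 and 849 at 16 h, and 1224 and 819 at 48 h, lower with IL-27 at each of the 3 times. Zap70 was 6329 and 5311 at 4 h, 5832 and 3254 at 16 h, and 2498 and 2015 at 48 h, so that control cells at 4 and 16 h stood 2.46-fold and 2.27-fold above 0 h. Cd247 was 1691 and 2177 at 4 h, 1524 and 2338 at 16 h, and 2022 and 1911 at 48 h, higher with IL-27 at both earlier times and lower at 48 h. Cd3g was 3351 and 2053 at 4 h, 4049.6 and 2860 at 16 h, and 4108 and 4041 at 48 h. Cd3d was 5883 and 4515 at 4 h, 7106 and 6096 at 16 h, and 7493 and 7483 at 48 h, so its arms met at the last time. Cd3e was 1315 and 857 at 4 h, 1167 and 1126 at 16 h, and 1018 and 1197 at 48 h. At 48 h the difference was -0.00 log2 for Cd3d, -0.02 for Cd3g and 0.23 for Cd3e. The HT_MG-430A arrays of 48 h had 0.36, 0.60 and 0.38, so the higher late level was seen on both array types for Cd3e only. At 4 h Cd3d differed by -0.38 here and by 0.36 on HT_MG-430A. Lat was 6713 and 6162 at 4 h, 4072 and 4402 at 16 h, and 3936 and 3699.6 at 48 h, lower with IL-27 at 48 h by 0.09 log2, where the HT_MG-430A arrays of that time had it higher by 0.53.

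In the limma fit of the 6 matched Mouse430A_2 arrays, with 2 residual degrees of freedom, 0 of 6508 genes were called (0% higher and 0% lower) and 480 had an unadjusted p under 0.05. Of the 8 genes, 4 had an unadjusted p under 0.05, all lower with IL-27: Cd4 (-0.68 ± 0.12), Sit1 (-0.52), Zap70 (-0.46) and Cd3g (-0.41). With a single time left out, which leaves 4 arrays and 1 residual degree of freedom, 211 genes were called without 48 h, these 4 among them, and none of the 8 was called without 4 h or without 16 h. GFPP and GFPN read alike for Cd4 (1003.9 each) and for Zap70 (2122 and 2121). The largest difference among the 8 genes was 0.23 log2 for Sit1 (255 and 213 units), with 1 array each and no test.

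**Figure D5:**
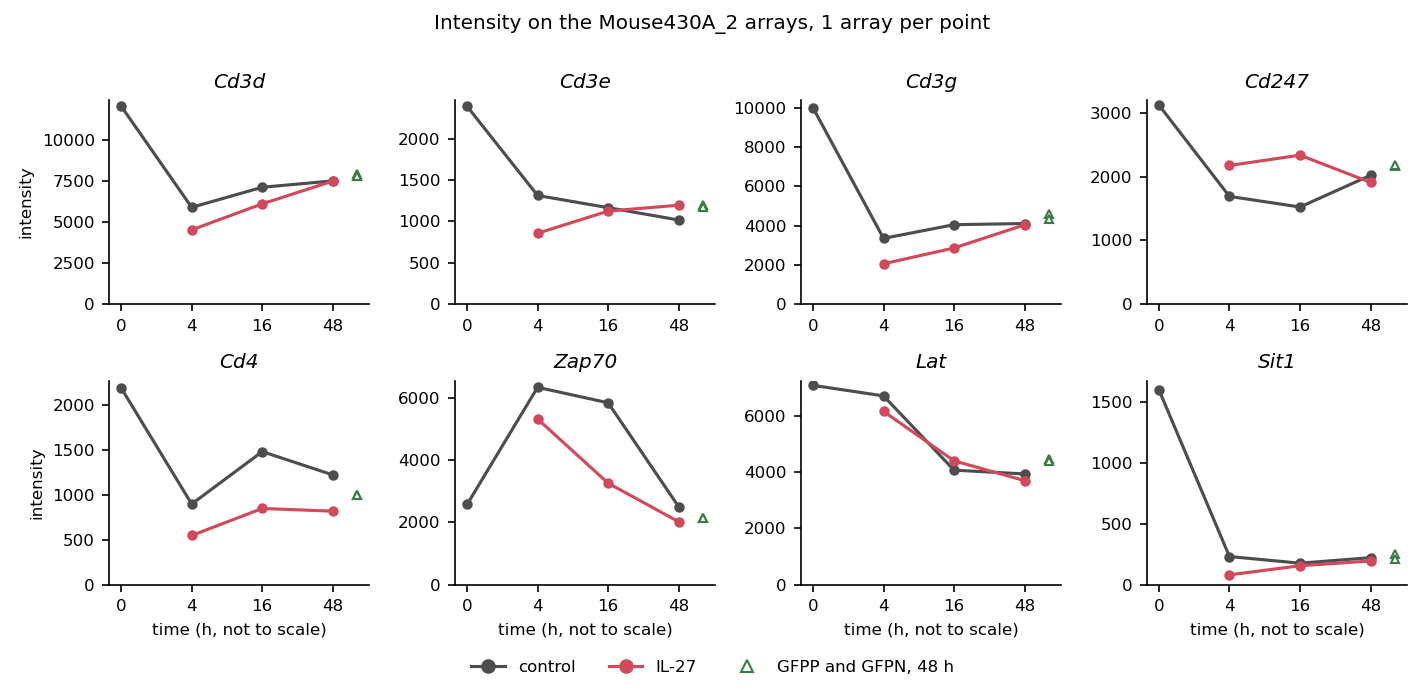
Intensity (linear axis, deposited units) of the 8 genes on single Mouse430A_2 arrays at 0, 4, 16 and 48 h, by arm and with GFPP and GFPN at 48 h. No error is drawn since each point is 1 array. Zap70 climbs from 2571 units at 0 h to 6329 in control at 4 h while Sit1 drops from 1602 to 231.

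Other probe sets of the same genes gave the same direction for Cd247 and a smaller difference for Cd4. For Cd247, probe sets 1420716_at and 1452539_a_at were higher with IL-27 in the middle window by 0.50 ± 0.09 (adjusted p = 0.00012) and 1.13 ± 0.18 (adjusted p = 3.4e-05), and late by 0.20 (adjusted p = 0.079) and 0.32 (adjusted p = 0.19), which were not called. Its probe set 1426079_at was too dim to be tested. For Cd4, the dimmer probe set 1427779_a_at differed by -0.20 in each window (adjusted p = 0.63, 0.16 and 0.082) and by -0.18 between 0.5 to 2 h and 12 to 20 h in control, none called. Between 0.5 to 2 h and 42 to 72 h in control it differed by 0.10 (adjusted p = 0.52), and Cd247 1420716_at by -0.12 (adjusted p = 0.55) and 1452539_a_at by -0.73 (adjusted p = 0.028), so that the lower late level of Cd4 was called with its brightest probe set and not with the other. For Zap70, 1439749_at differed by -0.14 in the middle (adjusted p = 0.13), and it fell by 0.26 ± 0.09 between 0.5 to 2 h and 12 to 20 h in control (adjusted p = 0.0065). The brightest Zap70 probe set differed there by -0.05 with all arrays and rose by 0.48 without the 12 h control array. The other was fitted only with all arrays, so the rise cannot be compared between them. Only the Mouse430A_2 annotation names 1439749_at as Zap70.

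Most other genes of the pathway also fell after stimulation. Of 101 listed genes, 71 had a named probe set and 65 were tested, and in control 40 were lower and 4 higher at 12 to 20 h than at 0.5 to 2 h (40 and 8 without the 12 h array), with a median of -0.84 beside 0.07 for all genes. Over all genes 32.8% were lower in this comparison. Of the 4 tested genes in the list of Src, Syk and Tec kinases, which also holds the adaptor Unc119, 3 fell: Txk and Tec, of the Tec family, by 2.51 and 1.33, and Fyn, a Src kinase, by 1.22. Adaptors that assemble around Lat fell in 8 of 15 cases, with Fyb, which links the receptor to adhesion, at -3.61, Grap2 at -1.50 and Lcp2, the SLP-76 scaffold, at -1.38. Of 17 negative regulators 12 fell, among them Dgka, which removes diacylglycerol (-2.98), and Pag1, which recruits the inhibitory kinase Csk (-2.18), and 2 rose, with the Ras pathway inhibitor Spry1 at 2.61. Downstream genes fell in 13 of 18 cases, with the calcineurin subunit Ppp3ca at -2.10, and of 10 accessory receptors 4 fell, a share near that of all genes, with the adhesion receptor Cd2 at -2.35 and the costimulatory receptor Cd28 at -1.43. With IL-27 the same comparison gave 37 lower and 8 higher, beside 31.5% and 40.3% of all genes. From 12 to 20 h to 42 to 72 h, 21 of the 65 were higher and 8 lower in control, beside 27.9% and 29.2% of all genes. Without the 12 h array 19 were higher and 13 lower, beside 28% and 31.5%. The higher share in control was thus near that of all genes. With IL-27 31 were higher and 11 lower, beside 30.6% and 32.4% of all genes.

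Between the arms, the pathway genes were split. In the early window 3 of 65 were lower with IL-27 and 0 higher, beside 0.531% and 1.79% of all genes: Cd28 (-0.53), the adaptor Sla2 (-0.40) and the calcium sensor Stim1 (-0.45). In the middle window 8 were higher and 13 lower, beside 4.82% and 5.85% of all genes, and without the 12 h control array 3 and 8, beside 3.85% and 4.3%. The 3 higher genes without that array were Cd2 (0.82), protein kinase C theta, Prkcq (0.68), and the phosphatase Ptpn2 (0.39), and the negative regulators Sla (-0.87), which promotes loss of receptor chains, Spry1 (-0.65) and the phosphatase Ptpn22 (-0.48) were among the 8 lower. With all arrays Cd6 (0.60), Vav1 (0.41), Nck1 (0.28), Fyb (-0.50) and Unc119 (-0.25) were also called, and they were not called without it. In the late window 12 were higher and 9 lower, beside 8.73% and 9.77% of all genes, with the adaptor Skap2 (0.84), Cd6 (0.59) and Ptpn2 (0.52) among the higher and Trat1, a transmembrane adaptor of the receptor complex (-1.57), Cd8b1 (-0.62) and Unc119 (-0.52) among the lower. The change from early to late was called for 9 of the 65, 7 higher and 2 lower (3.48% and 3.62% of all genes), with Cd28 at 0.99, Cd6 at 0.97 and Trat1 at -1.60.

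The genes of the complex were compared with each other over the 52 HT_MG-430A arrays, which share their times and arms, so correlations describe the common course. Cd3g went with Cd3d (r = 0.91), Sit1 (0.90) and Cd4 (0.88), and Cd247 went with Lat (0.84). Cd3d and Cd3e had r = 0.71, and Zap70 had r from -0.10 to -0.02 with the 3 CD3 chains, and from -0.24 to 0.06 without the 12 h control array. Among all genes tested, the closest to Cd3d were Fam107b and Crip1 (0.94 each), to Cd3e Tmem63a and Nmb (0.92 each), to Cd3g Cd3d and Sh3kbp1 (0.90), and to Cd247 H2-D1 and Peli1 (0.88 each). Cd4 was closest to Cd3g and Celf2 (0.88 each), Lat to Srsf11 (0.88) and Khdc4 (0.87), and Sit1 to Bbs9 and Septin1 (0.93 each). For Zap70 the closest were Aamp (0.85) and Lrrc41 (0.84), which dropped to 0.70 and 0.71 without the 12 h control array.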

How the data were processed

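RNA was measured on 61 Affymetrix arrays, 52 HT_MG-430A and 9 Mouse430A_2, labelled as cRNA from 6 ug of total RNA per the labels' protocols. The deposited tables, 1 per array type, hold the authors' intensity values on a linear scale, made with MAS5 per the submitters' processing notes, with settings that the notes leave out. No further normalization was applied, and array types were tested apart. Exactly equal values between arrays made up at most 0.022% of probe sets on HT_MG-430A and up to 3.6% on Mouse430A_2, which the notes do not explain.

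Platform annotation named 20173 probe sets with 1 gene, while 942 with several and 1511 with none were left out, and each gene took its brightest probe set. Genes above their own array's median on at least 5 HT_MG-430A arrays (3 on Mouse430A_2) were tested as log2(intensity + 32) with lmFit and eBayes (intensity trend) of limma 3.58.1 in R 4.3.3, adjusted by Benjamini-Hochberg over all genes tested and called under 0.05. The models were 1 with a term for each time and an IL27 term per window, 1 with a mean per arm and period, and 1 for Mouse430A_2. The script was tested on simulated data. The members, lists, windows and tests were chosen with earlier results of these data known, and the analysis by 5 periods was added after the values were seen. Named are every member, per list at most the 3 called genes with the largest difference in a comparison, and the 2 genes most correlated with each member. Ptpn2 in the middle window is named outside this rule, after its value was seen. Alternatives covered the pseudocount, normalization, filter, probe sets, left-out arrays or times, and blocking. Values on each array are intensities with errors as SE of the model (±).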

Additional observations from a re-analysis of the deposited data

Results flagged for a closer look

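The effect of IL-27 differed between time windows or periods, by a test of the change itself, for 5 of the 8 genes. For Cd3d, Cd3e and Cd3g this rests only on the comparison of periods that was added after the values were seen. From the early to the middle window the effect changed by 0.64 for Cd247 and by 0.67 for Sit1, where 0.461% of all genes changed up and 0.782% down. From early to late it changed by 0.59 for Sit1 (3.48% and 3.62% of all genes). From 12 to 20 h to 42 to 72 h it changed by 0.42 for Cd3d, 0.51 for Cd3e, 0.59 for Cd3g and -0.44 for Cd247 (8.04% and 7.51% of all genes), all on the log2(intensity + 32) scale. Without the 12 h control array the -0.44 of Cd247 became -0.34 and was not called, and changes were also called for Lat (0.37 to the middle and 0.35 to the late window), Cd3e (0.32 to the late window), Cd4 (0.36) and Zap70 (0.68), the last pair from 12 to 20 h to 42 to 72 h. Without 2 h neither change of Sit1 was called (0.38 and 0.30). The change of Cd247 to the middle window was not called without 2 h (0.69) or without 16 h (0.61).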

How the results depend on the processing

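Counts of members called that are not given here stayed within 1.5 times the reported ones. The early count of 2 members was 1 with genes above the median mean value (where Sit1 was not tested), with the mean of all probe sets, without arrays of title suffix d and with the mean of single-time contrasts, and 0 to 2 with single times left out. From early to middle, the 2 members became 1 with a pseudocount of 1, with genes above the median mean value and without suffix d, and 0 to 3 with single times left out. From early to late, the 1 member became 0 with genes above the median mean value and without suffix d, 2 with the mean of single-time contrasts, 3 without the 12 h control array, and 0 to 3 with single times left out. With single times left out, the middle count was 3 to 6 and the late one 3 to 4. The count for 42 to 72 h against 0.5 to 2 h was 4 to 7 in control and 3 to 6 with IL-27, and 5 with IL-27 without suffix d. The IL-27 effect at 42 to 72 h was called for 1 to 5 members, and on Mouse430A_2 for 0 to 4. The Zap70 control difference between 12 to 20 h and 0.5 to 2 h turned from -0.05 to 0.48 without the 12 h control array and was -0.29 to 0.48 with single times left out. The cause was not tested, beyond the fewer arrays or genes that these settings use.

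Arrays with a suffix d share only that mark: deviations of same-suffix arrays correlated at 0.23 to 0.76 at 7 of the 8 times and at -0.01 at 30 h, and since that pair did not correlate they were not taken as pairs. A replicate block for time and suffix gave 2 members early, 5 in the middle (Cd3d added, -0.18, adjusted p = 0.029), 4 late (Cd3d added, 0.14, adjusted p = 0.034), and 2 and 1 for the changes, over 223, 1060, 1654, 154 and 714 genes called in all by limma. Without the 12 h control array it gave 3 for the late change. Over all genes, 166 were called early and 9 without 2 h, 764 in the middle and 439 without 16 h, 1325 late and 612 with genes above the median mean value, 89 from early to middle and 428 with single-time contrasts, and 508 from early to late and 158 without 2 h. Low signal limits Sit1 most at 4 to 20 h, where it lay near the array median. At 42 to 72 h it read 71.9 to 157.5 units in control and 79.7 to 155.6 with IL-27.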
